A study of Mus musculus with 53 samples.

Results

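The Ly6/uPAR family of small surface and secreted proteins is described here through 10 listed genes, Slurp1, Psca, Ly6g6c, Ly6d, Ly6a, Ly6e, Ly6h, Lypd2, Lypd3 and Lynx1, found by symbol in the array annotation. Of these, 9 were matched in both expression tables of the series, among 19938 genes on the whole-transcript Gene ST arrays and 18194 genes on the 3′ arrays, and Ly6a is not analysed here. Each gene is represented by its brightest probe set, selected on the mean level over all arrays of a table. No other measured value entered the choice of probe set. The members themselves were chosen with earlier results of these data known, so their counts are not those of an unselected list.

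Ly6/uPAR proteins are built on a compact domain of finger-like loops held together by disulphide bonds. Most members are tethered to the cell surface by a glycosylphosphatidylinositol (GPI) anchor, a lipid tail added after translation, and a few are secreted. Several bind nicotinic acetylcholine receptors, and others mark leukocytes or the upper layers of stratified epithelia such as skin, esophagus and cornea. Many mouse members lie in a cluster on chromosome 15.

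The series profiles developing mouse epithelial tissues with 53 arrays in 18 groups, and each table was treated on its own. The Gene ST table follows whole cornea over 7 ages, the embryonic (E) days E14.5, E15.5, E17.5 and the postnatal (P) days P3, P7, P14, P28, and adds arrays labelled lung and arrays labelled trachea from E18.5. In the 3′ table, bladder and dorsal skin were each sampled on E14.5, on E16.5 and on E18.5, while esophagus, proximal small intestine and stomach were sampled on E18.5 alone. Each group has 3 arrays, except the E14.5 bladder with 2. All mice were of the CB6 background and wildtype, except that the E18.5 bladders came from Get1 +/- mice, which carry 1 working copy of the grainyhead-like transcription factor Get1 (Grhl3), so in bladder the step to E18.5 changes age and genotype together. RNA came from homogenised whole tissue, and in such samples fewer cells of a type and less RNA per cell cannot be told apart. The labels do not say that the arrays of a group are separate animals, so p-values measure array-to-array spread only, and that spread may be technical.

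A level below is log2(intensity + 16) after quantile normalization within a table. The floor, an intensity of 0, is a level of 4, and the median gene stood at 8.12 in the Gene ST table and 6.68 in the 3′ table. A change was called, and is described as a rise or fall, at an adjusted p under 0.05 (limma, Benjamini-Hochberg over all genes of the table) and at least 2-fold on this scale, which understates the change of dim genes. Levels of different probe sets are not compared with each other.

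The annotated promoters of 2 of the 10 genes, Ly6g6c and Lypd3, were in the RefSeq table used (GRCm38.p6). They are shown because it held the promoter of no other member. Each stretch holds the 250 bases before the annotated start of the gene on the plus strand, at chr17:35067075-35067324 for Ly6g6c and chr7:24636320-24636569 for Lypd3. Capitals mark matches, on either strand, to the ETS core GGAA, the KLF core CACCC and the TATA box TATAAA.
Ly6g6c: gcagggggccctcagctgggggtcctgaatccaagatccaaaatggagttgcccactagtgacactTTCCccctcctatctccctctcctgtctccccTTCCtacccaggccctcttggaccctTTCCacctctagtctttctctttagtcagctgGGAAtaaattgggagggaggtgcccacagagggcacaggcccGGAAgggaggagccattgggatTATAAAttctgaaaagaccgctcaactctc
Lypd3: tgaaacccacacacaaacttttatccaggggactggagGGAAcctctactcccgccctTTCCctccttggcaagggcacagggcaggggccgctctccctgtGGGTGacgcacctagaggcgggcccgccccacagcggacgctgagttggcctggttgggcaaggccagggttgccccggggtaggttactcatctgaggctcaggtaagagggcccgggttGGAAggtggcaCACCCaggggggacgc

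The Ly6g6c stretch has a GC content of 55.2% and holds 5 GGAA matches, starting 184, 152, 126, 94 and 52 bases before the start, and 1 TATAAA match 30 bases before it. The Lypd3 stretch has a GC content of 65.2% and holds 3 GGAA matches, starting 212, 192 and 27 bases before the start, and 2 CACCC matches at 148 and 16 bases. The grainyhead motif AACCNGTT was searched as well and these letters are in neither window. Over 32851 promoters of the same length, GGAA is in 93.4%, CACCC in 52%, TATAAA in 12.4% and AACCNGTT in 1.79%. These matches describe letters and are not evidence of binding.

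Several arrays stood apart by markers outside the family. Small intestine replicate 4 had summed intensities of 43700 over 10 cornified epidermis markers, 32200 over 10 gastric markers and 11500 over 10 intestinal markers, where replicates 1 and 3 had 198 and 565, 1630 and 3310, and 82700 and 84200. The fit shares its estimate of the spread of a gene over all groups, so this array also enters comparisons of other tissues. Results of the 3′ table are therefore given with this array and, where a call differs, without it. The E16.5 skin, E18.5 skin and small intestine groups correlated with each other at 0.83 to 0.96 and with the other 6 groups at only 0.66 to 0.76, whatever the tissue. These 2 sets of groups, called array sets below, are read from the correlations alone, and the labels name no set, run or batch. In comparisons that cross them (between 42.2% and 48.9% of all genes called), array set and tissue or age cannot be told apart. Replicates 1 and 2 of E14.5 skin share an identifier in their titles, and each had an intestinal marker sum of 12200 against 83.9 in replicate 3. The arrays labelled lung had 11 of 11 thymocyte markers and 5 of 5 thymic epithelium markers above the table median, against 4 of 11 lung epithelium markers, so they are called here only by their label.

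In the cornea, 7 of the 9 measured family members rose between E14.5 and P28, where 8.4% of all genes rose and 5.54% fell (13.9% in all). Lypd2, Psca, Ly6g6c, Slurp1 and Lynx1 rose the most, by 22.8-fold to 94.5-fold, Lypd3 rose 6.95-fold and Ly6e 2.95-fold. Ly6d and Ly6h stayed near their starting levels. The arrays of the groups did not overlap for any of the 7, nor for Ly6d, which was not called (log2 0.34). The share of all genes without overlap is not given, so this is no mark of the family.

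Slurp1 encodes a secreted protein that acts on nicotinic acetylcholine receptors of keratinocytes. Its corneal levels were 7.52, 7.77 and 7.8 at E14.5, between 7.11 and 8.79 over all arrays from E15.5 to P7, 8.76, 9.09 and 9.18 at P14, and 12.43, 12.33 and 12.38 at P28. All P28 arrays lay above every other array, and the P14 arrays overlapped the earlier ages by only 1 P7 array. The rise from P14 to P28 was 10.3-fold (log2 3.37, SE 0.22, adjusted p = 8.3e-10), and no earlier step between consecutive ages was called. From E14.5 to P28 the rise was 25.6-fold (log2 4.68, SE 0.22, adjusted p = 1.93e-13).

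Psca encodes a GPI-anchored surface antigen first known from prostate. Its levels were 6.44, 6.85 and 6.77 at E14.5, 8.58, 8.46 and 8.73 at E15.5, 7.67, 7.01 and 8.32 at E17.5, and 9.97, 10.15 and 9.76 at P3. They were 7.36, 8.72 and 11.21 at P7, 9.73, 9.45 and 9.56 at P14, and 13.74, 13.75 and 12.25 at P28. The P7 arrays spread over 7.36 to 11.21, wider than at any other corneal age, and without P7 replicate 3, the highest, the P7 level was called below P3. The P28 arrays were higher than every other array. Psca rose from E14.5 to E15.5 (3.74-fold, adjusted p = 0.017), from E17.5 to P3 (4.9-fold, adjusted p = 0.0152) and from P14 to P28 (12.7-fold, adjusted p = 0.000119). The first of these was lost without E14.5 replicate 1 or E15.5 replicate 3 (highest adjusted p = 0.0566), and the E17.5 to P3 step was lost without E17.5 replicate 2 or P3 replicate 2 (highest adjusted p = 0.0663). Over the whole course it rose 94.5-fold (log2 6.56, SE 0.58, adjusted p = 4.2e-09).

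Lypd2, which lies next to Slurp1 on chromosome 15, did not follow a straight course. It was at 7.63, 7.34 and 7.49 at E14.5 and at 10.76, 11.55 and 11.74 a day later, a 14.5-fold rise (log2 3.86, SE 0.28, adjusted p = 9.45e-10). It then stood at 10.17, 10.87 and 9.42 at E17.5 and at 8.58, 9.15 and 9.27 at P3, the only called fall of a family member between consecutive corneal ages (2.22-fold, adjusted p = 0.0122), which was lost without E17.5 replicate 2 or P3 replicate 1 (adjusted p up to 0.127 over its alternatives). Its P7 arrays, at 11.67, 12.43 and 12.16, were 8.47-fold above P3 (log2 3.08, SE 0.28, adjusted p = 4.19e-07). P14 lay at 12.15, 12.55 and 12.5, and P28 at 13.82, 13.81 and 13.72, 2.61-fold higher (adjusted p = 0.00141). Beside this course, the summed intensity of 9 corneal epithelium markers ran from 5560 to 7930 at E14.5, 27400 to 40600 at E15.5, 24700 to 25400 at P3 and 47200 to 59900 at P7, and its part in the Lypd2 changes was not tested.

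Lypd3 (C4.4A) is a surface glycoprotein of the suprabasal layers of stratified epithelia. It rose early and stayed up. Levels of 8.32, 8.35 and 7.65 at E14.5 were followed by 9.79, 10.97 and 10.96 at E15.5, a 5.51-fold rise (log2 2.46, SE 0.46, adjusted p = 0.000357). All later corneal arrays lay between 9.39 and 11.16, with no called step and with 10.89, 10.66 and 11.16 at P28.

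Ly6g6c, a GPI-anchored member encoded in the major histocompatibility complex region on chromosome 17, rose at both ends of the course. Its levels were 7.27, 7.97 and 7.85 at E14.5 and 8.59, 9.73 and 9.74 at E15.5, a 3.16-fold rise (adjusted p = 0.000109). From E17.5 to P14 its arrays lay between 8.26 and 10.04 with no called step, and at P28 they reached 13.27, 13.1 and 12.81, 9.55-fold above P14 (log2 3.26, SE 0.28, adjusted p = 3.64e-08). No P28 array overlapped any other array of the table.

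Lynx1 encodes a GPI-anchored modulator of nicotinic acetylcholine receptors, best known in brain. It was at 6.21, 6.56 and 7.66 at E14.5 and 7.52, 7.82 and 8.48 at E15.5, a difference of 2.19-fold (adjusted p = 0.0167) in which the arrays overlapped and which was lost without E14.5 replicate 1, E14.5 replicate 2 or E15.5 replicate 3 (adjusted p up to 0.113 over its alternatives). The main rise came after birth. Levels were 7.57, 7.02 and 7.38 at P3, 9.19, 9.77 and 8.33 at P7, 9.89, 9.56 and 10.06 at P14, and 11.48, 11.25 and 11.23 at P28. The P3 to P7 rise was 3.42-fold (adjusted p = 0.00318) and the P14 to P28 rise 2.8-fold (adjusted p = 0.00452). Slurp2, which lies beside Lynx1, had a mean of 8.48 ± 0.17 (SD, n = 3) at P28.

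Ly6e, also called thymic shared antigen and inducible by interferon, was at 9.69, 9.38 and 9.32 at E14.5, between 8.19 and 9.82 from E15.5 to P7, 10.76, 9.91 and 10.76 at P14, and 11.67, 11.05 and 10.34 at P28. No step between consecutive ages was called for it. The E14.5 to P28 rise (log2 1.56, SE 0.28, adjusted p = 0.00012) came beside 10 of 17 interferon-induced genes that rose (8.4% of all genes), Ifih1, an RNA sensor, by 13.9-fold and Oasl2 by 9.13-fold among them. The median change of that list was 1.43 on the log2 scale against -0.11 over all genes. The interferon-induced genes summed to 6640 to 24500 on the P28 arrays, which thus differed widely among themselves, against 2840 to 3340 at E14.5. Whether the Ly6e rise is part of it was not tested.

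Ly6d, a marker of lymphocyte progenitors and of keratinocytes, differed by 0.34 between P28 and E14.5 on the log2 scale (95% interval 0.03 to 0.65, adjusted p = 0.0661). All corneal arrays for it lay between 7.87 and 8.68. Ly6h, a member known from brain, lay between 7.01 and 7.68 on all corneal arrays and differed by -0.18 (95% interval -0.43 to 0.07, adjusted p = 0.247). Ly6h did not exceed the table median in any group and was the only measured member of 9 that did not pass a filter on low values there.

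**Figure D1:**
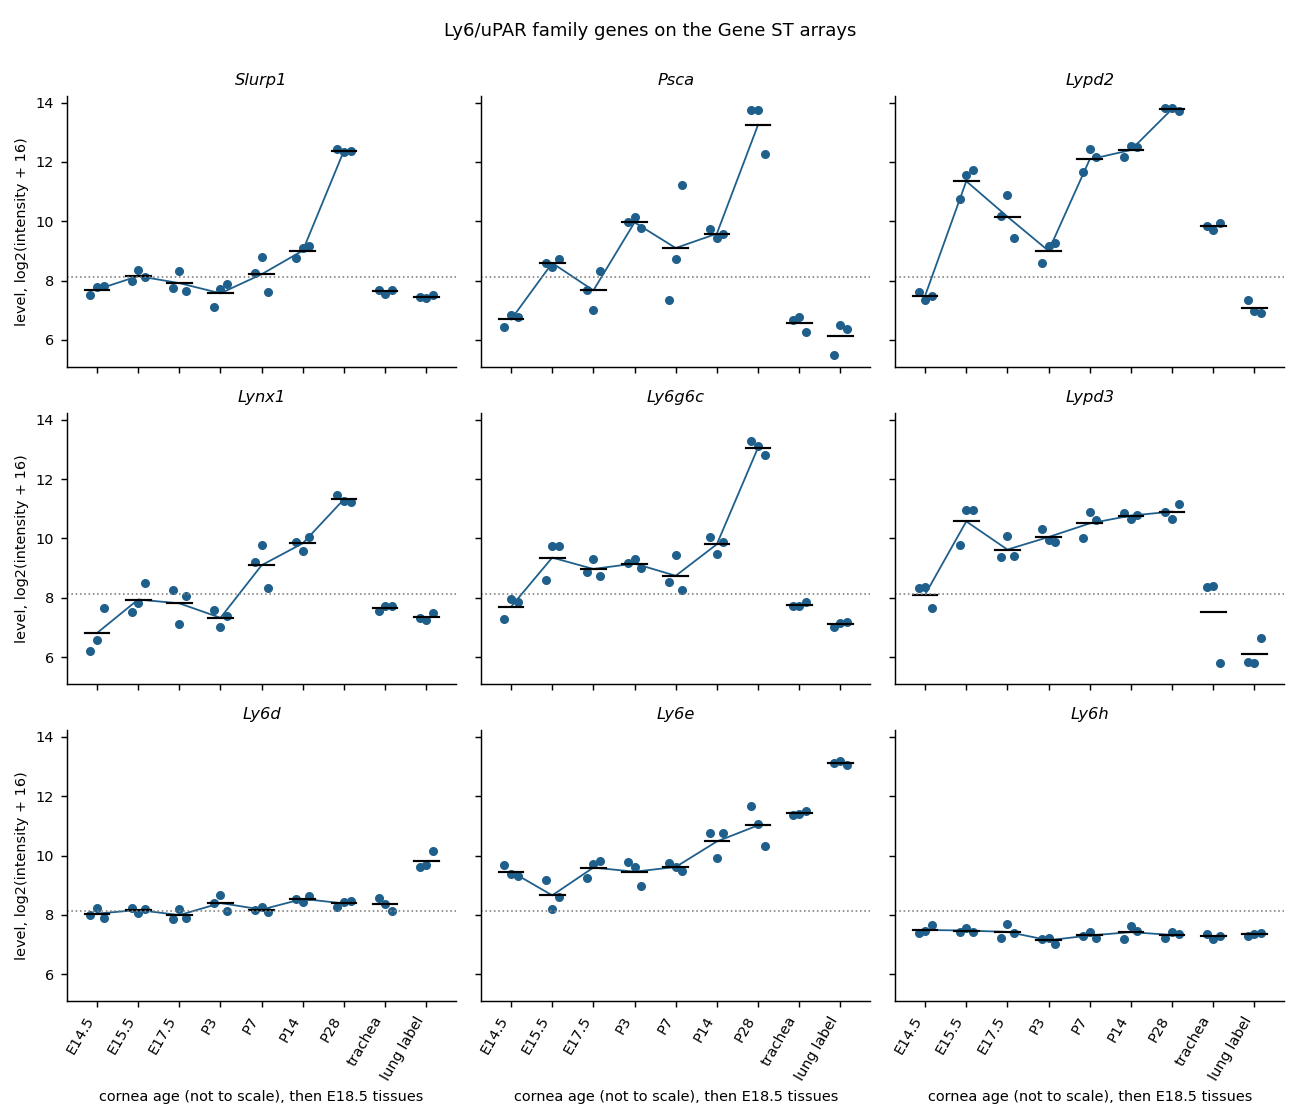
Levels, log2(intensity + 16), of the 9 measured genes on every Gene ST array, 1 panel per gene; points are arrays, black bars group means, the line joins the cornea means in order of age (not to scale) and the dotted line is the table's median gene at 8.12. Slurp1, Psca, Ly6g6c, Lypd2 and Lynx1 are highest on the 3 P28 cornea arrays, while Ly6d and Ly6e are highest on the arrays labelled lung.

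Read by step, the corneal changes of the 9 members fell mainly at 2 intervals. As these were chosen with earlier results of these data known, counts above the share of all genes do not describe the family. At E15.5 against E14.5, 5 of 9 members were higher and none lower, where 5.3% of all genes were higher and 2.26% lower (7.56% in all). At P28 against P14, 5 of 9 were higher, where 1.63% of all genes were higher and 2.84% lower (4.47% in all). The P3 to P7 step had 2 of 9 higher (0.868% of all genes, with 0.557% lower and 1.42% in all) and the E17.5 to P3 step 1 higher and 1 lower (0.451% and 0.978% of all genes, 1.43% in all). At E17.5 against E15.5 and at P14 against P7, limma called 0 of 9, with 2 and 5 members at an unadjusted p under 0.05. Of all genes, 0.261% rose and 0.0451% fell at the former step (0.306% in all), and 0.01% rose and 0.00502% fell at the latter (0.015% in all). These zeros rest on single arrays: without E15.5 replicate 1, Lypd2 (lower) and Ly6e (higher) were called at the former, Lypd2 also without E17.5 replicate 2, and without P7 replicate 2, Slurp1 and Ly6g6c were called higher at the latter. Over the 7 ages together, 7 of 9 members changed, beside 21.7% of all genes.

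**Figure D2:**
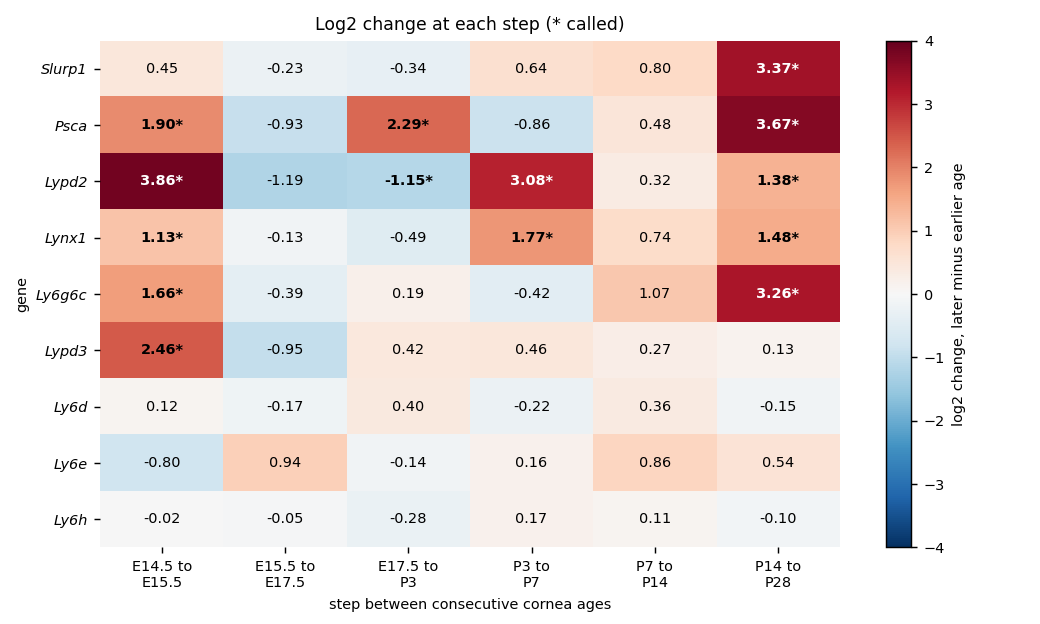
Log2 change of each of the 9 genes (rows) at each step between consecutive cornea ages (columns), from limma; an asterisk marks a called change. Calls stand mainly in the first column, E15.5 against E14.5, and the last, P28 against P14.

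The 5 genes whose P28 arrays all lay above every other Gene ST array, Slurp1, Psca, Ly6g6c, Lypd2 and Lynx1, are 5 of 9, and 4.86% of all genes had this property. Markers of other cell types moved with age in the same arrays. All 9 corneal epithelium markers rose from E14.5 to P28, their sum going from 5560 to 7930 up to 93000 to 102000. Of 9 markers of nonkeratinised stratified epithelium 6 rose (sums of 1270 to 1360 and 33100 to 45400). At E14.5 the lens markers summed to 8240 to 97900, the erythroid markers to 35800 to 48500 and the neuron markers to 7190 to 44700, against 6060 to 40100, 527 to 580 and 1460 to 2200 at P28. Their part in the changes of the members was not tested. From P14 to P28, where Slurp1, Psca and Ly6g6c rose 9.55-fold to 12.7-fold, 3 of 9 corneal epithelium markers and 1 of 9 nonkeratinised markers were called higher.

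The labels number the cornea replicates, and same-numbered arrays deviated together only between P14 and P28 (correlations of deviations of 0.242, 0.133 and 0.134). With the replicate number as a block the same count, 5 of 9, was called there. Without the block, 4.47% of all genes were called at that step in either direction.

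Trachea and the arrays labelled lung, both at E18.5, differed in 4 of the 9 genes, 2 in each direction, beside 10.8% of all genes higher in trachea and 5.26% lower (16.1% in all). Lypd2 was at 9.84, 9.7 and 9.93 in trachea and 7.34, 6.97 and 6.91 on the lung-labelled arrays, 6.72-fold higher in trachea (log2 2.75, SE 0.28, adjusted p = 2.74e-08). Ly6e was lower in trachea, with 11.38, 11.41 and 11.5 against 13.13, 13.19 and 13.06 (3.24-fold, adjusted p = 3.65e-05), and Ly6d with 8.56, 8.38 and 8.14 against 9.62, 9.69 and 10.14 (2.74-fold, adjusted p = 2.98e-08). The lung-labelled arrays had the highest Ly6d and Ly6e levels of the table, beside thymocyte marker sums of 116000 to 124000 against 1030 to 1100 in trachea. Of 17 interferon-induced genes, 14 were lower in trachea too. The part of these cells in the Ly6d and Ly6e differences was not tested.

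Lypd3 was called higher in trachea (2.7-fold, adjusted p = 0.0155), but its arrays, at 8.36, 8.38 and 5.81, overlapped the lung-labelled ones at 5.84, 5.79 and 6.63. The call was lost when any of lung replicates 1 and 2 or trachea replicates 1 and 2 was left out (adjusted p up to 0.126 over its alternatives). Slurp1, Psca, Ly6g6c, Ly6h and Lynx1 were not called. Their trachea arrays lay between 7.56 and 7.68 for Slurp1, 6.28 and 6.78 for Psca, 7.72 and 7.86 for Ly6g6c, 7.18 and 7.37 for Ly6h, and 7.55 and 7.72 for Lynx1.

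In dorsal skin, Ly6d, Lypd3, Ly6g6c and Slurp1 rose between E14.5 and E16.5, 4 of 9 members beside 18.2% of all genes higher and 25% lower (43.2% in all). The same 4 were called without small intestine replicate 4. Ly6d had the largest change of the 9, at 5.91, 6.17 and 6.87 at E14.5, 12.04, 12.06 and 12.13 at E16.5, and 11.48, 12.12 and 12.15 at E18.5. Neither later group overlapped E14.5. Its rise to E16.5 was 54.1-fold (log2 5.76, SE 0.85, adjusted p = 4.32e-06).

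Lypd3 was at 7.63, 7.46 and 7.63 at E14.5, 11.16, 11.31 and 11.29 at E16.5, and 10.26, 10.56 and 10.99 at E18.5, a rise of 12.8-fold to E16.5 (log2 3.68, SE 0.96, adjusted p = 0.00209). Ly6g6c was at 8.52, 8.25 and 8.92, then 11.6, 11.75 and 11.69, then 10.42, 10.34 and 10.58. The groups did not overlap for either gene, and both were highest at E16.5. The Ly6g6c rise to E16.5 was 8.68-fold (log2 3.12, SE 0.83, adjusted p = 0.00248). Its E18.5 level against E14.5 differed by 1.88 (adjusted p = 0.0528), which was called without small intestine replicate 4 (adjusted p = 7.71e-07).

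Slurp1 was near the floor at E14.5, at 4.46, 4.14 and 4.05, and stood at 6.19, 7.76 and 7.26 at E16.5 and 5.22, 7.11 and 7.86 at E18.5. The E16.5 rise was 2.85 on the log2 scale (SE 0.87, adjusted p = 0.00702). The E18.5 rise, 2.51, was lost without E18.5 replicate 2 or 3 (adjusted p up to 0.0877 over its alternatives). Ly6e was at 9.05, 9.02 and 8.79 at E14.5 and 9.97, 10.22 and 9.88 at E18.5, a 2.1-fold rise (adjusted p = 0.00191) that fell under the 2-fold limit without E14.5 replicate 3 or E18.5 replicate 2.

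Psca moved the other way in skin. It was at 6.62, 6.84 and 6.76 at E14.5, 5.79, 6.4 and 6.06 at E16.5, and 4, 4 and 4 at E18.5, where each array had an intensity of 0.01. The E18.5 arrays were thus at the floor and no fold is given. The fall from E14.5 to E18.5 had an adjusted p of 0.0229 and was lost without E14.5 replicate 2 (adjusted p = 0.0525). Lypd2 lay between 4 and 5.12 on every skin array, and Ly6h and Lynx1 changed at no called step in skin, with arrays between 4.43 and 5.67 and between 5.02 and 6.54.

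Between E16.5 and E18.5 in skin, limma called 0 of 9 members with all arrays in the fit, with 0 at an unadjusted p under 0.05, beside 2.44% of all genes higher and 2% lower (4.44% in all). Without small intestine replicate 4 it called 2, Psca (adjusted p = 0.000218) and Ly6g6c (a log2 difference of -1.23, adjusted p = 0.00125), both lower at E18.5, beside 5.04% of all genes in either direction. From E14.5 to E18.5, 4 members rose and 1 fell, beside 18.6% of all genes higher and 24% lower (42.7% in all). The Lypd3 rise over this span was lost with a pseudocount of 1 (limma, adjusted p = 0.0863). This span crosses the array sets too. Beside the E16.5 rises, the 10 cornified epidermis markers went from sums of 15400 to 19800 up to 57300 to 63100, and 4 of 10 were called higher. Their part in the rises was not tested.

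**Figure D3:**
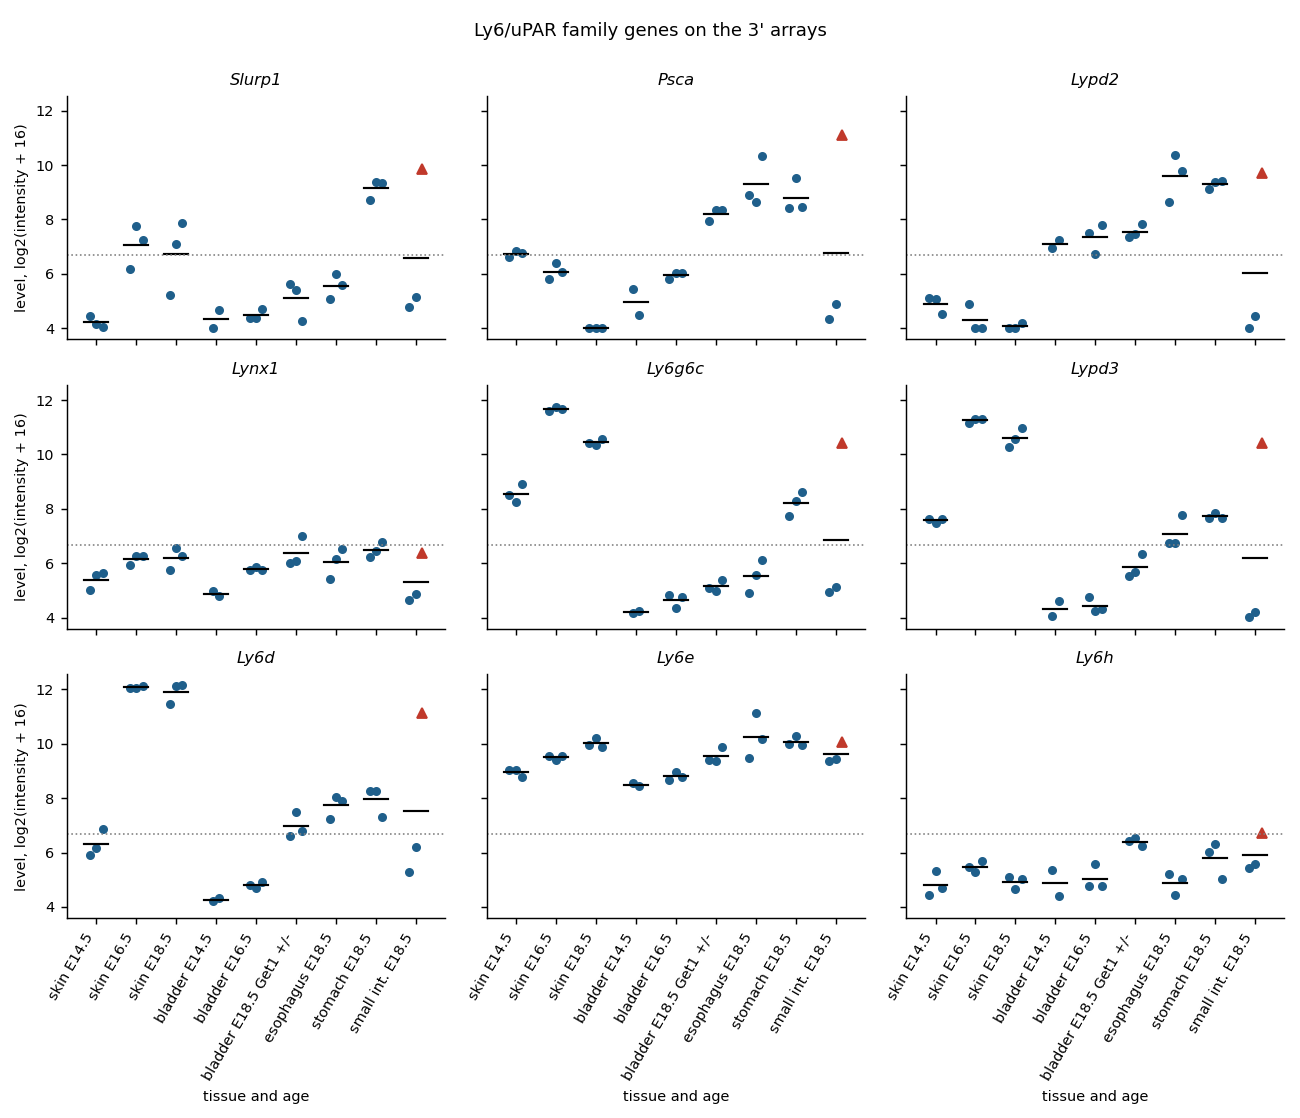
Levels, log2(intensity + 16), of the 9 genes on every array of the 3′ table, 1 panel per gene; points are arrays, black bars group means, the dotted line the table's median gene at 6.68, and the red triangle small intestine replicate 4. Ly6d, Lypd3 and Ly6g6c are highest in E16.5 and E18.5 skin, and the red triangle stands far above the other small intestine arrays for 6 genes.

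In bladder, limma called 0 of 9 members from E14.5 to E16.5, with 1 at an unadjusted p under 0.05 (Lynx1, 4.96 and 4.8 against 5.76, 5.85 and 5.75), beside 0.269% of all genes higher and 0.0715% lower (0.341% in all). The E18.5 Get1 +/- bladder against E16.5 had 1 of 9 higher beside 3.99% of all genes higher and 2.15% lower (6.14% in all). This was Ly6h, at 6.42, 6.55 and 6.23 against 4.75, 5.59 and 4.77, a 2.57-fold rise (log2 1.36, SE 0.36, adjusted p = 0.0132). The call was lost without E16.5 replicate 1 or E16.5 replicate 3 (highest adjusted p = 0.0629). In the same comparison 7 of 11 neuron markers rose, with sums of 3470 to 4230 against 1190 to 1740, and their part in the Ly6h rise was not tested.

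Psca in bladder was at 5.44 and 4.5 at E14.5, 5.79, 6.04 and 6.02 at E16.5, and 7.95, 8.35 and 8.34 at E18.5. Ly6d was at 4.21 and 4.32, then 4.8, 4.69 and 4.93, then 6.59, 7.5 and 6.81. Neither gene's E18.5 arrays overlapped E16.5, yet neither was called with all arrays in the fit (adjusted p = 0.144 and 0.0922). The spread in that fit is shared with small intestine, where the SD was 3.76 for Psca and 3.14 for Ly6d. In E16.5 and E18.5 bladder it was 0.14 and 0.23 for Psca, and 0.12 and 0.48 for Ly6d. Without small intestine replicate 4 the bladder count was 4 of 9, beside 6.86% of all genes, with Psca at 2.26 (adjusted p = 0.000121), Ly6d at 2.16 (adjusted p = 6.39e-05), Lypd3 at 1.41 (adjusted p = 0.000527) and Ly6h at 1.36 (adjusted p = 0.00448). The urothelium markers, 6 of 6 above the table median at E18.5, summed to 4910 to 6740 against 2380 to 2740 at E16.5. Lypd2 lay between 6.74 and 7.82 on every bladder array at all ages.

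The skin and bladder courses from E14.5 to E16.5 were set against each other with an interaction term. The skin arrays of these ages belong to different array sets, so array set and skin age cannot be told apart. The Ly6d change in skin exceeded that in bladder by 5.22 (SE 1.27, adjusted p = 0.00169) and the Lypd3 change by 3.56 (SE 1.44, adjusted p = 0.044), 2 of 9 members beside 16.9% of all genes with a higher change in skin and 25.2% with a lower one (42.2% in all). The Lypd3 difference was lost on leaving out any single array of the 4 groups and with the mean of E14.5 skin replicates 1 and 2 as 1 sample (adjusted p up to 0.303 over its alternatives). Without small intestine replicate 4, 5 of 9 were called beside 43.9% of all genes, and these were Ly6d, Lypd3, Ly6g6c (2.68, adjusted p = 2.98e-06), Slurp1 (2.69, adjusted p = 0.00418) and, in the other direction, Psca (-1.64, adjusted p = 0.0108).

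Esophagus, lined by a stratified epithelium, differed from E18.5 skin in 5 of 9 members, 2 higher and 3 lower, beside 25.7% of all genes higher and 23.3% lower (48.9% in all). Lypd2 was at 8.65, 10.37 and 9.8 in esophagus and 4.01, 4.01 and 4.18 in skin (adjusted p = 8.92e-06), and no fold is given because the skin arrays stood near the floor, where the size of a difference depends on the pseudocount (5.16 to 8.93 on the log2 scale over the alternatives). Psca was at 8.9, 8.65 and 10.33 against the floor in skin (adjusted p = 9.15e-05). The other direction held for Ly6g6c, Ly6d and Lypd3. Ly6g6c was at 4.92, 5.56 and 6.11 in esophagus, 30.2-fold below skin (log2 -4.92, SE 0.83, adjusted p = 2.04e-05). Ly6d was at 7.25, 8.05 and 7.9, 18.2-fold below (adjusted p = 0.000166), and Lypd3 at 6.73, 6.76 and 7.77, 11.4-fold below (adjusted p = 0.00269). No array of the 2 tissues overlapped for these 5 genes, though the share of all genes without overlap is not given. Without small intestine replicate 4 Slurp1 was called lower as well (-1.17, adjusted p = 0.0399). In the same comparison 9 of 10 cornified markers were lower in esophagus and 7 of 9 nonkeratinised markers higher. The count of 5 of 9 is near the share of all genes called in either direction. Esophagus and E18.5 skin belong to different array sets, so array set and tissue cannot be told apart.

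Against stomach, esophagus had lower Slurp1 and Ly6g6c, 2 of 9 members beside 4.25% of all genes lower and 2.8% higher (7.05% in all). Slurp1 was at 5.09, 5.99 and 5.6 in esophagus and 8.72, 9.36 and 9.34 in stomach, its highest group mean in the table, an 11.9-fold difference (log2 -3.58, SE 0.87, adjusted p = 0.00737). Ly6g6c was at 7.74, 8.27 and 8.61 in stomach, 6.4-fold above esophagus (adjusted p = 0.0336), a call lost without any of stomach replicates 1, 2 and 4 or esophagus replicates 1 and 2 (adjusted p up to 0.119 over its alternatives). The stomach arrays had cornified marker sums of 10400 to 18000 against 1680 to 2990 in esophagus, and 8 of 10 of these markers were called lower in esophagus. The part of those cells in the Slurp1 and Ly6g6c differences was not tested.

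Psca, Lypd2 and Ly6e were not called apart between these 2 foregut tissues. Psca was at 8.42, 9.52 and 8.44 in stomach, Lypd2 at 9.11, 9.39 and 9.43, and Ly6e at 9.98, 10.28 and 9.94, all overlapping the esophagus arrays. For Psca the difference, esophagus minus stomach, was 0.5 and for Lypd2 0.3 on the log2 scale, with adjusted p = 0.826 and 0.885, which does not show that they are equal.

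The bladder of Get1 +/- mice against esophagus had Ly6h 2.85-fold higher (log2 1.51, SE 0.36, adjusted p = 0.00343), 1 of 9 members beside 6.37% of all genes higher and 4.85% lower (11.2% in all). Esophagus was at 5.2, 4.45 and 5.01 for it, below all 3 bladder arrays. Without small intestine replicate 4, 4 of 9 were called beside 11.9% of all genes, with Lypd2 (-2.06, adjusted p = 0.000102), Lypd3 (-1.24, adjusted p = 0.000794) and Psca (-1.08, adjusted p = 0.0207) lower in bladder.

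Small intestine is where 1 array decided the values. For Ly6d its arrays were at 5.28, 6.2 and 11.12, for Psca 4.35, 4.88 and 11.11, for Lypd2 4, 4.43 and 9.71, and for Lypd3 4.01, 4.2 and 10.41, the last value in each being replicate 4. That array was also high for Slurp1, at 9.86 against 4.77 and 5.15, and for Ly6g6c, at 10.44 against 4.95 and 5.14. With it, 3 of 9 members were called higher in stomach than in small intestine beside 25.6% of all genes higher and 20% lower (45.6% in all). They were Slurp1 (5.82-fold, adjusted p = 0.014), Lypd2 (9.6-fold, adjusted p = 0.00249) and Lynx1 (2.28-fold, adjusted p = 0.00682), and all 3 overlapped. All 3 calls were lost with only the groups compared in the fit (adjusted p up to 0.141 for Slurp1, 0.0983 for Lypd2 and 0.0694 for Lynx1 over their alternatives), and Slurp1 and Lynx1 were also lost with the replicate number as a block or without small intestine replicate 1 or 3. Without replicate 4, 7 of 9 were called higher, beside 48.2% of all genes in either direction. Those were Slurp1 and Psca at 4.18, Lypd2 at 5.09, Lypd3 at 3.62, Ly6g6c at 3.16, Ly6d at 2.21 and Lynx1 at 1.74 on the log2 scale, with the highest adjusted p, 3.96e-05, for Lynx1. The sizes for Lypd2 and Lypd3, which stood near the floor on replicates 1 and 3, depend on the pseudocount. Stomach and small intestine belong to different array sets, so array set and tissue cannot be told apart.

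**Figure D4:**
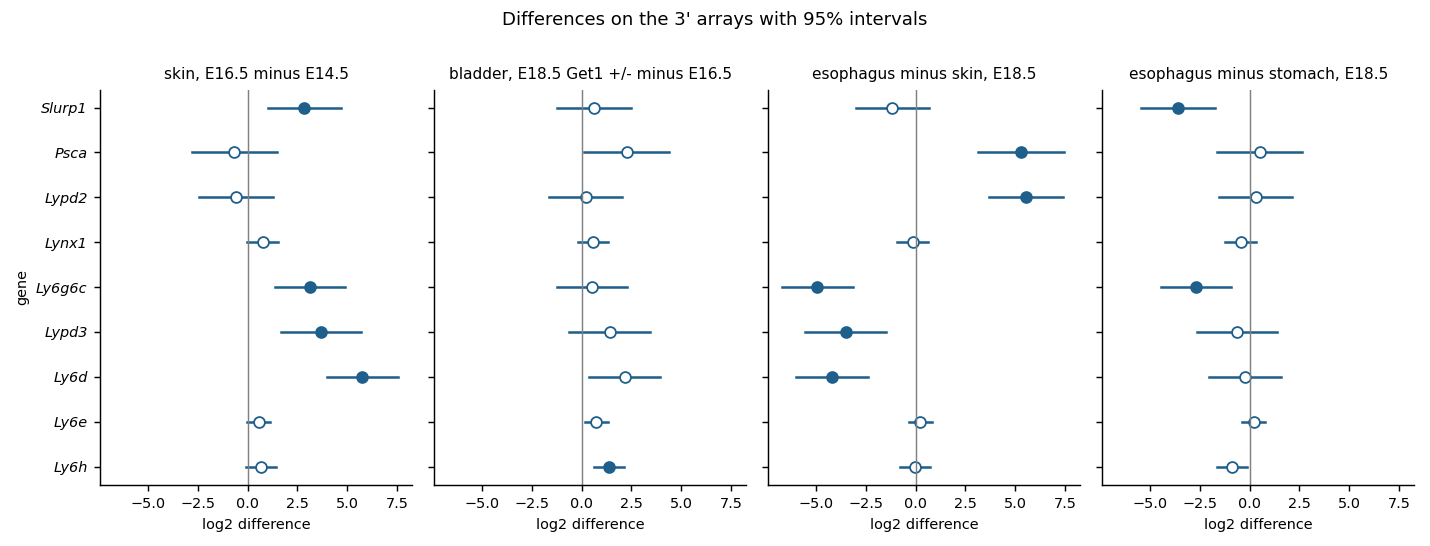
Log2 differences of the 9 genes, with 95% intervals, in 4 comparisons of the 3′ table (skin E16.5 minus E14.5, bladder E18.5 Get1 +/- minus E16.5, esophagus minus skin and esophagus minus stomach), all arrays in the fit; filled points are called. Ly6d, Lypd3, Ly6g6c and Slurp1 are filled above 0 in skin, and Lypd2 and Psca lie far above 0 in esophagus minus skin. The intervals use a spread shared over all groups, small intestine replicate 4 included.

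For each gene the groups were ranked by mean and neighbours compared, as a description of the order. Neighbours are by construction the closest groups, so few calls are built in, and no share of all genes is given for these pairs. Among 72 neighbouring pairs per table, 11 were called on the Gene ST arrays and 3 on the 3′ arrays. For Slurp1, Ly6g6c, Lypd2 and Lynx1 the top step, P28 above P14, was called, and for Psca it was P28 above P3 (adjusted p = 0.000113). Lypd3 was called between E17.5 and E14.5 cornea (adjusted p = 0.0235), with its 6 later corneal ages not told apart from their neighbours. On the Gene ST arrays Ly6d and Ly6e were each called at the top, with the lung-labelled arrays above the next group, and nowhere further down. The remaining called pairs there were Lypd2 at P3 above E14.5, Lynx1 at P7 above E15.5 (adjusted p = 0.0378) and Lypd3 in trachea above the lung-labelled arrays. In the 3′ table, with all arrays in the fit, the called neighbours were Slurp1 in stomach above E16.5 skin (adjusted p = 0.04) and, in E18.5 skin above stomach, Ly6d (adjusted p = 0.000296) and Lypd3 (adjusted p = 0.0113). All of these cross the array sets given above, where array set and tissue cannot be told apart. No neighbouring pair was called for Ly6h in either table.

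Without small intestine replicate 4, 12 of the 72 neighbouring pairs of the 3′ table were called, the 3 above among them. For Ly6g6c these were E16.5 above E18.5 skin (adjusted p = 0.00125), E18.5 above E14.5 skin (adjusted p = 7.71e-07) and stomach above esophagus (adjusted p = 6.09e-08). For Lypd3 they included esophagus above Get1 +/- bladder (adjusted p = 0.000794) and Get1 +/- above E16.5 bladder (adjusted p = 0.000527). Lypd2 was called in stomach above Get1 +/- bladder (adjusted p = 0.000502) and in E14.5 bladder above E14.5 skin (adjusted p = 0.000134). Psca was called in Get1 +/- bladder above E14.5 skin (adjusted p = 0.00325) and Slurp1 in E18.5 skin above esophagus (adjusted p = 0.0399). No pair was called for Ly6e, Ly6h or Lynx1 in that fit. E18.5 above E14.5 skin and E18.5 skin above esophagus cross the array sets as well.

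The order of group means in the 3′ table differed by gene. For Ly6d it ran from E16.5 skin (12.08 ± 0.05) and E18.5 skin (11.92 ± 0.38) through stomach (7.95 ± 0.55), esophagus (7.73 ± 0.42), small intestine (7.54 ± 3.14), Get1 +/- bladder (6.97 ± 0.48) and E14.5 skin (6.32 ± 0.5) down to E16.5 bladder (4.8 ± 0.12) and E14.5 bladder (4.26 ± 0.07), each as mean ± SD with n = 3 except n = 2 for E14.5 bladder. For Lypd2 it ran from esophagus (9.61 ± 0.88) and stomach (9.31 ± 0.18) through the bladder groups and small intestine to the skin groups at the bottom. For Psca, esophagus (9.29 ± 0.91), stomach (8.8 ± 0.63) and Get1 +/- bladder (8.21 ± 0.23) stood at the top and E18.5 skin at the floor. Ly6e varied least among the members that passed the filter, with group means from 8.5 in E14.5 bladder to 10.26 in esophagus. On the 3′ arrays 7 of 9 members passed, and Ly6h and Lynx1 did not.

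Some genes shared a profile over the 9 group means of a table, given as descriptions over few points that share libraries. In the Gene ST table Slurp1 and Ly6g6c correlated at 0.94, Psca and Ly6g6c at 0.95, Slurp1 and Lynx1 at 0.91 and Ly6d and Ly6e at 0.85. In the 3′ table Lypd3 correlated at 0.96 with both Ly6g6c and Ly6d, and Ly6g6c with Lypd2 at -0.66. On chromosome 15 the order of protein-coding neighbours is Psca, Them6, Slurp1, Lypd2, Slurp2, Lynx1 and Ly6d in RefSeq's GRCm38.p6 annotation, so genes that peaked at P28 in cornea lie beside Ly6d, which did not.

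Among other genes with group means spanning at least 2 log2 units, 3879 in the Gene ST table and 8061 in the 3′ table, the likest to Slurp1 in the Gene ST table was Aqp5, a water channel of cornea and glands (r = 0.99 over 9 groups). Ovol1, an epithelial transcription factor, was likest to Ly6g6c (0.991), Vnn1 to Psca (0.958), Galnt18 to Lypd2 (0.978), Lratd1 to Lypd3 (0.989), the clock output factor Dbp to Lynx1 (0.986) and Idi1 to Ly6e (0.965). In the 3′ table Il18 was likest to Slurp1 (0.962), Atp8a1 to Psca (0.947), Polr3g to Ly6g6c (0.989), Rassf5 to Ly6d (0.984) and Eps8l1 to Lypd3 (0.991). Ehf, an ETS factor of epithelia, was likest to Lypd2 (0.991). The 3′ correlations here and above run over groups of both array sets and include small intestine replicate 4. The part of either in them, and any regulation between the genes, was not tested.

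Other members of the Ly6/uPAR family were taken from a list of 38 genes, 32 of them measured on the Gene ST arrays and 24 on the 3′ arrays. In cornea from E14.5 to P28, limma called 0 of 32, with 14 at an unadjusted p under 0.05, beside 8.4% of all genes higher and 5.54% lower, and a median change of -0.16 against -0.11 over all genes. Over the 7 ages 4 of 32 changed (21.7% of all genes), Cd59a, a complement inhibitor, by a span of 1.38, Lypd6b by 1.17, Lypd11 by 1.07 and Lypd1 by 1.05. In skin from E14.5 to E16.5, 6 of 24 rose and 3 fell, beside 18.2% of all genes higher and 25% lower. Lypd5 rose 47.3-fold (adjusted p = 2.43e-07) and Ly6g6e 4.04-fold (adjusted p = 0.00303), while Lypd9 fell 9.85-fold (adjusted p = 0.00168) and Lypd8, an intestinal member that guards the mucosa against bacteria, fell 8.47-fold (adjusted p = 0.00227), beside the intestinal marker signal of E14.5 skin replicates 1 and 2 given above.

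In esophagus against stomach 2 of 24 other members were lower (4.25% of all genes), Lypd8 by 133-fold (adjusted p = 3.03e-06) and Cd177, a neutrophil antigen, by 2.44-fold (adjusted p = 0.00816). The stomach arrays had intestinal marker sums of 4360, 2040 and 5860, and the part of this signal in the Lypd8 difference was not tested. In esophagus against skin 3 of 24 were higher and 10 lower (25.7% and 23.3% of all genes), Lypd5 among the lower by 34.8-fold (adjusted p = 6.52e-07). In the Get1 +/- bladder against E16.5, 1 of 24 rose (3.99% of all genes), Gpihbp1, which carries lipoprotein lipase into capillaries (2.83-fold, adjusted p = 0.000115). Trachea had 1 of 32 higher than the lung-labelled arrays (10.8% of all genes), Cd59a (2.65-fold, adjusted p = 0.000985).

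Slurp1 and Lynx1 act on nicotinic acetylcholine receptors, and of 16 receptor subunits measured on the Gene ST arrays none rose and 3 fell in cornea from E14.5 to P28 (8.4% and 5.54% of all genes), Chrna3 by 12-fold (adjusted p = 0.000413), Chrnb4 by 2.44-fold (adjusted p = 7.64e-05) and the muscle subunit Chrna1 by 2.24-fold (adjusted p = 0.00847). Chrna3 and Chrnb4 are neuronal subunits, and markers of neurons in general also fell over this interval (7 of 11 called). Those markers summed to 7190, 7710 and 44700 on E14.5 replicates 1, 2 and 3, so replicate 3 stood apart. The part of neurons in the subunit falls was not tested. Of 9 genes of acetylcholine synthesis and breakdown, 3 choline transporter-like genes rose (Slc44a2 2.71-fold, Slc44a1 2.62-fold and Slc44a4 2.23-fold) and Bche, a cholinesterase, fell 5.82-fold (adjusted p = 1.85e-05), against the same shares of all genes. Trachea had 4 of 16 receptor subunits higher than the lung-labelled arrays and 1 lower (10.8% and 5.26% of all genes), with the muscle subunits Chrng (11.5-fold) and Chrna1 (10.1-fold) highest, beside skeletal muscle marker sums of 91900 to 128000 against 1650 to 2160. In skin from E14.5 to E16.5, 1 of 15 rose, Chrnd (4.31-fold), and 3 fell, Chrna7 among them (2.66-fold, adjusted p = 0.000449), beside 18.2% and 25% of all genes.

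GPI anchor assembly, on which the membrane-bound members depend, had 3 of 27 genes higher and none lower at P28 against E14.5 (8.4% and 5.54% of all genes), Piga by 8.55-fold (adjusted p = 1.94e-11), Pigh by 3.11-fold and Pigc by 2.78-fold, which encode subunits of the enzyme that starts the anchor. The list's median change was 0.29 against -0.11 over all genes. In skin from E14.5 to E16.5, 3 of 26 rose and 8 fell (18.2% and 25% of all genes), with Dpm3 up 5.61-fold and Pigv down 10.7-fold. Of 8 genes of the urokinase system, the pathway of the receptor that gives the family its other name, 1 rose in cornea from E14.5 to P28, Plau (2.83-fold, adjusted p = 5.86e-06), beside 8.4% of all genes.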

How the data were processed

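Whole tissues of embryonic and postnatal mice were measured on 2 Affymetrix array types. Deposited values are linear intensities per probe set; the submitters' processing notes name PLIER (2.0) and Affymetrix Expression Console (1.1.1). Of 35556 Gene ST and 45101 3′ probe sets, 21789 and 34958 had 1 gene symbol and were used, 1621 and 932 had several, and 12146 and 9211 had none. Values were moved to log2(intensity + 16), quantile-normalized within each table, and reduced to the brightest probe set per gene (mean over all arrays). Array medians before normalization ran from 7.60 to 8.17 and from 5.35 to 6.03. Groups follow the labels. In R 4.3.3, limma 3.58.1 (lmFit, eBayes) was fitted to all groups of a table, with Benjamini-Hochberg adjustment over all its genes, and checked on simulated data. The members, gene lists and tests were chosen with earlier results of these data known. The text names the 10 members, at most 4 called genes per list and comparison, and up to 3 likest genes per member with a span of 2 log2 units or more. Ly6g6c has 3 probe sets on the 3′ array, Ly6e 2 and Lynx1 2; the other probe set of Ly6e was dim and correlated with the brightest at only 0.32. Alternatives were the deposited values without quantile normalization, a pseudocount of 1, the mean of all probe sets, only genes above the table median in some group, no fold limit, a robust eBayes with an intensity trend, a fit to just the compared groups, a replicate block, the mean of E14.5 skin replicates 1 and 2, and each array left out. A fit without small intestine replicate 4 was chosen after seeing the data. The number of arrays limits the precision.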

Additional observations from a re-analysis of the deposited data

Results flagged for a closer look

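The changes of Ly6d and Lypd3 from E14.5 to E16.5 differed between skin and bladder by the interaction term. For Ly6d the skin change exceeded the bladder change by 5.22 on the log2 scale (limma, adjusted p = 0.00169), and for Lypd3 by 3.56 (adjusted p = 0.044). The Lypd3 difference was lost in 14 of 20 alternatives, each omission of a single array of the 4 groups among them (adjusted p up to 0.303). In the limma fit without small intestine replicate 4, chosen after seeing the data, it was 3.56 (adjusted p = 9.24e-08). Of all genes, 42.2% were called in this comparison with all arrays and 43.9% in that fit. The bladder means for Ly6d were 4.26 and 4.8, and those for Lypd3 4.31 and 4.44, all close to the floor of 4. The skin arrays at E14.5 and E16.5 belong to the sets that correlate poorly with each other, while the bladder arrays belong to one of them, so array set and skin age cannot be told apart here.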

How the results depend on the processing

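Of 55 called results of single members, 40 kept their direction and call in each alternative run and 15 lost the call in at least 1; none reversed. Across single-member results, leaving out 1 array of the groups compared gave 1143 of 1197 the same, 40 weaker and 14 stronger. All other alternatives gave 1390 of 1438 the same, 15 weaker and 33 stronger. These others include the fit without small intestine replicate 4 for comparisons of other tissues, so not all of them keep every array. The counts of members called that moved by over 1.5 times were as follows, and the cause was not tested beyond the arrays and genes each setting leaves out. For E17.5 against E15.5 cornea, 0 became 1 on the values as deposited and 1 among genes above the table median. For P3 against E17.5, 2 became 1 with only the groups compared. For E18.5 against E16.5 skin, 0 became 1 with a pseudocount of 1, 2 with only the groups compared and 2 without small intestine replicate 4. For E18.5 Get1 +/- against E16.5 bladder, 1 became 2 with a pseudocount of 1, 0 among genes above the table median, 4 with only the groups compared and 4 without small intestine replicate 4. For esophagus against stomach, 2 became 1 on the values as deposited and 1 with a pseudocount of 1. For bladder against esophagus, 1 became 0 among genes above the table median, 3 with only the groups compared and 4 without small intestine replicate 4. For stomach against small intestine, 3 became 0 with only the groups compared and 1 with the replicate block. For the skin against bladder change, 2 became 1 with a pseudocount of 1, with eBayes trend and robust, and with the mean of E14.5 skin replicates 1 and 2, and 5 with only the groups compared or without small intestine replicate 4. Without that array, 5.04% of all genes were called for the skin step (4.44% with it) and 6.86% for the bladder step (6.14%). The shares were 11.9% for bladder against esophagus (11.2%) and 43.9% for the skin against bladder change (42.2%). Shares under the other settings and omissions are not given here, so moved counts are not read as results about the members. Leaving out each array in turn gave 3 to 6 members for E15.5 against E14.5 cornea, 0 to 2 for E17.5 against E15.5, 0 to 2 for P3 against E17.5 and 0 to 2 for P14 against P7. It gave 3 to 6 for E18.5 against E14.5 skin, 0 to 1 for the Get1 +/- against E16.5 bladder, 1 to 2 for esophagus against stomach, 1 to 2 for bladder against esophagus, 1 to 7 for stomach against small intestine and 1 to 1 for the skin against bladder change. The lowest values came without E14.5 replicate 1 or E15.5 replicate 3, without E17.5 replicate 2, without E18.5 skin replicate 2, without E16.5 bladder replicate 1 or 3, and without small intestine replicate 1 or 3; the highest stomach count came without small intestine replicate 4. In the replicate block fits the counts of members were unchanged apart from stomach against small intestine. Same-numbered arrays deviated together between P14 and P28 cornea only, where the block gave 5 of 9 members. Quantile normalization assumes like distributions across tissues, and members near the floor of the 3′ table (Slurp1, Lypd2 and Psca in skin) have differences that depend on the pseudocount.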
